A study of Mus musculus with 12 samples.

Results

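The cytosolic ribosomal protein genes, which encode the protein parts of the small (Rps) and large (Rpl) subunits of the cytosolic ribosome, were compared between AND-TCR transgenic and C57BL/6 thymocytes. A probe set, which is a group of short oligonucleotides that reports 1 transcript, was included when its only annotated gene symbol was Rpl or Rps followed by a number, with kinases and pseudogenes left out. This rule took 67 of 36701 probe sets and 41 of 15964 genes, with 46 probe sets on the U74Av2 array, 1 on U74Bv2 and 20 on U74Cv2. A further 51 probe sets carried a ribosomal protein symbol together with other symbols, such as those of pseudogenes and predicted genes, and are kept apart.

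The AND-TCR group was total thymocytes of adult mice that carry the rearranged AND T-cell receptor and were positively selected on the H-2b background. The C57BL/6 group was total thymocytes of adult mice of that strain with no transgene named. The AND receptor recognizes an MHC class II–bound peptide, so that most thymocytes share 1 specificity and mature toward the CD4 lineage. Every array type of the Affymetrix U74 set (3 types, 12 arrays) received 2 hybridizations of each group, and the study's methods call the hybridizations independent experiments. Neither source says how many mice gave the RNA or whether they were littermates, so p-values measure the spread between hybridizations, which may be technical.

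All 8 measured genes of a list of thymocyte markers were above the detection limit on both arrays of each group. The levels of some differed between the groups, with Cd8b1, a chain of the CD8 coreceptor, at 13143 and 14473 in AND-TCR thymocytes against 33503 and 33035 in C57BL/6 thymocytes, and the recombinase gene Rag1 (probe set 93683_at) at 6545 and 6313 in AND-TCR thymocytes against 33115 and 28353 in C57BL/6 thymocytes. Of the 11 tested thymocyte probe sets 8 had negative and 3 positive log2 fold changes, with 3 called lower and 0 higher. Of the B-cell markers, 8 probe sets were tested and all 8 had negative log2 fold changes (median −0.62, 0 called). All 4 measured B-cell genes were above the limit on both C57BL/6 arrays, but 2 on both AND-TCR arrays. A probe set of Cd79a and one of Ighm entered the test through C57BL/6 alone, with both AND-TCR values set to the limit, and could not come out positive. The alpha globin gene Hba-a1 of red blood cells had 6639 and 4378 in AND-TCR thymocytes against 9710 and 11407 in C57BL/6 thymocytes. Of the macrophage and myeloid markers, 3 probe sets were tested and all 3 had positive changes (median 0.34, 0 called). In all 3 only the AND-TCR group had both arrays above the limit, and the pair medians were 0.80 and −0.39. The part of such cells in the values below was not tested. In RNA of whole thymocyte suspensions, fewer cells of a type and less RNA per cell cannot be told apart. The hybridizations with the same number were run on the same day in both groups, while all AND-TCR arrays were washed in 1 fluidics module and all C57BL/6 arrays in another, so module and group cannot be told apart.

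Ribosomal protein mRNAs are among the most abundant mRNAs of growing cells, and their products are assembled with ribosomal RNA in the nucleolus into a small subunit, which reads the mRNA, and a large subunit, which forms the peptide bond. Most of these mRNAs begin with a terminal oligopyrimidine (TOP) tract, an unbroken stretch of C and T (U in the RNA) at the very start, through which the mTOR kinase controls their translation. Because that control acts on translation, RNA levels measure only part of how the cell sets its supply of ribosomes. In thymocytes, ribosome supply is known for changing with proliferation, and mouse Rpl22 is required for development of αβ T cells.

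The start windows below show this feature in the genes themselves, with bases 15 before to 15 after the annotated start in RefSeq (GRCm38.p6) and capitals for an unbroken C/T run of at least 8 bases that comes within 10 bases of the start. The first 5 genes were chosen from the 10 that have such a run and a tested probe set. The last 3 were chosen because they were tested and have none.
Rps10 (chr17:27635230-27635259, minus strand): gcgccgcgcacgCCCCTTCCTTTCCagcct
Rps18 (chr17:33955651-33955680, minus strand): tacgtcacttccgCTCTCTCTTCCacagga
Rpl7a (chr2:26910792-26910821, plus strand): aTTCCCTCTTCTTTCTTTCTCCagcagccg
Rplp2 (chr7:141447636-141447665, plus strand): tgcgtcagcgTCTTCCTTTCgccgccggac
Rps27 (chr3:90213634-90213663, minus strand): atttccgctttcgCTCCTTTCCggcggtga
Rps4x (chrX:102189377-102189406, minus strand): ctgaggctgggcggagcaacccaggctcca
Rps28 (chr17:33824548-33824577, minus strand): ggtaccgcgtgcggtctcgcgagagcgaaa
Rpl41 (chr10:128549154-128549183, minus strand): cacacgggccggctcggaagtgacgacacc
The run crosses the start in all 5 genes shown with one, and is 13 bases long in Rps10, 11 in Rps18, 21 in Rpl7a, 10 in Rplp2 and 9 in Rps27. That does not hold for all tested genes with such a run. It ended before the start in Rpl13 and Rpl19 and began after it in Rpl13a and Rps26.

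Promoter windows were given for 34 of the 41 genes, with 44 annotated starts. A C/T run of at least 8 bases near the start was present at 16 of the 44 starts (36.4%), against 13.7% of 21262 starts of all protein-coding genes and 12% of 75 starts of mitochondrial ribosomal protein genes. The base at position 5 after the start, picked after the shares were seen, was C or T at 77.3% of ribosomal protein starts, against 51.8% of all starts. Over the 300 bases from 250 before to 50 after the start, on either strand, GGAAG, the core letters of ETS-family sites, was found in 93.2% of ribosomal protein windows against 72.4% of all windows. CCATNTT, the core of YY1 sites, was found in 38.6% of the ribosomal protein windows against 15.1% of all windows, GGGCGG in 54.5% against 46.2%, and TATAAA in 9.09% against 12.6%. Windows of mitochondrial ribosomal protein genes had GGAAG in 78.7%, CCATNTT in 30.7%, GGGCGG in 52.0% and TATAAA in 6.67%. These are descriptions of annotated starts, which can lie some bases from the start used in thymocytes.

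**Figure D1:**
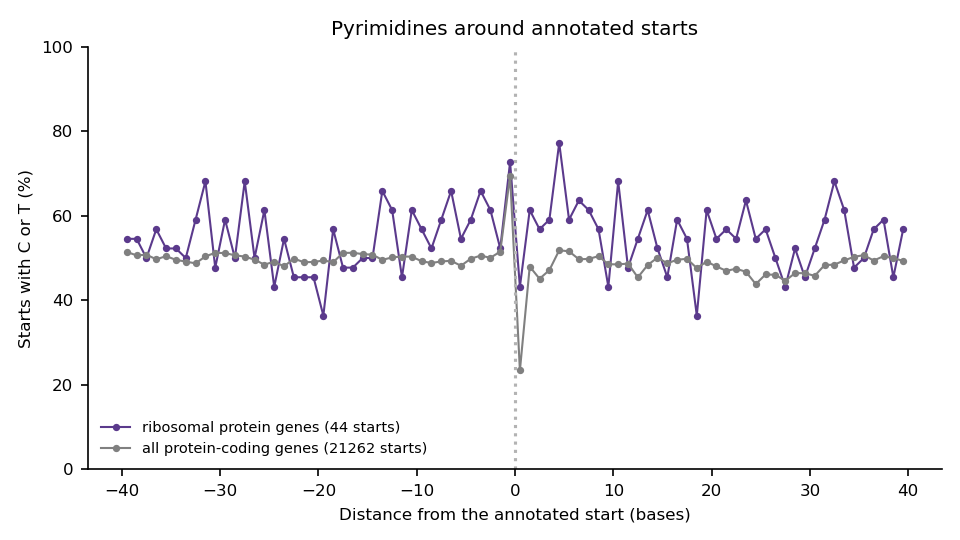
Percentage of annotated starts with C or T at each distance, in bases, from the start, for ribosomal protein genes (44 starts) and for all protein-coding genes (21262 starts), each point being 1 position. At position 5 after the start the share was 77.3% in ribosomal protein genes and 51.8% in all genes.

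A probe set was tested when 1 group or the other had both of its arrays above the detection limit. That limit was 2 noise SDs, or 420.8 intensity units on U74Av2, 869.4 on U74Bv2 and 1578.7 on U74Cv2, on the authors' scale of a trimmed mean near 1000. Of the 67 probe sets 30 were tested, from 25 genes, and 27 of the 30 were above the limit on all 4 arrays of their type. Another 27 were below it on all 4 arrays. Of the tested probe sets 20 read above 10000 on every array of their type, a level chosen after the values were seen. An intensity also depends on the probes, so levels of different genes are not ranked here.

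No ribosomal protein gene differed between AND-TCR and C57BL/6 thymocytes beyond the threshold of the test, and the fitted changes were small. In limma with Benjamini-Hochberg adjustment, 0 of the 30 tested probe sets were called higher and 0 lower at an adjusted p under 0.05, while over all 12844 tested probe sets 1.05% were called (0.483% higher and 0.568% lower). At an unadjusted p under 0.05 there were also 0 of 30, against 14.0% of all tested probe sets, and the lowest limma adjusted p among the 30 was 0.378, for Rpl13a. The median log2 fold change of the 30, AND-TCR over C57BL/6, was 0.07, a fold of 1.05, with 23 positive and 7 negative, but after quantile normalization the median was −0.0039, with 13 positive and 17 negative. After scaling to the median of non-ribosomal probe sets it was 0.048, with 21 positive and 9 negative. Rpl22 (92857_at), Rpl13 and Rps3 (168181_i_at) entered the test through the AND-TCR arrays alone, and their changes were positive. With all 4 arrays required above the limit, 20 were positive and 7 negative, with a median of 0.064. Over all tested probe sets the median log2 fold change was 0.02. With 1 hybridization left out at a time, the median of the 30 was 0.036 without AND-TCR hybridization 1, 0.036 without C57BL/6 hybridization 1, 0.104 without AND-TCR hybridization 2 and 0.0997 without C57BL/6 hybridization 2, and 0 probe sets of any gene were called.

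The size of the differences was small beside that of other genes. The median absolute log2 fold change was 0.10 for the 30 ribosomal protein probe sets and 0.26 for all tested probe sets, and 1 of the 30 (3.33%) had a fitted change of at least 1.5-fold, against 16.8% of all tested. The 95% interval of the change lay within 2-fold either way for 23 of the 30 and within 1.5-fold for 20. Among the 20 probe sets above 10000 on every array the fitted log2 fold changes ran from −0.14 to 0.245, with a median absolute value of 0.08, and 19 of the 20 intervals lay within 1.5-fold. The 504 other probe sets at that brightness had a median absolute log2 fold change of 0.16, and 16 of them (3.17%) were called.

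**Figure D2:**
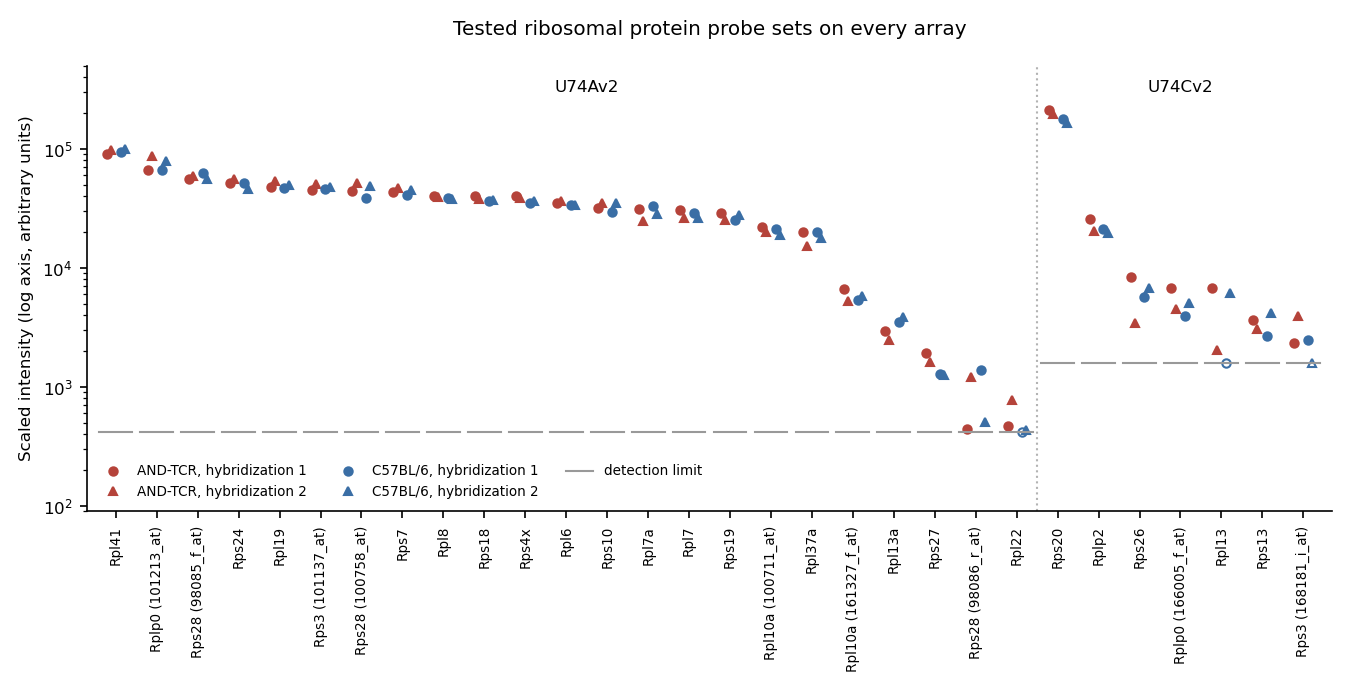
Scaled intensity (log axis, arbitrary units) of the 30 tested ribosomal protein probe sets on each array, with AND-TCR in red left of C57BL/6 in blue, circles for hybridization 1, triangles for hybridization 2, gray bars for the detection limit, and open symbols for values under it, drawn at it. The bright probe sets have their 4 symbols close together, as Rpl8 between 38301 and 40545, while those near the limit scatter more widely.

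The groups overlapped for most members. Both AND-TCR arrays were above both C57BL/6 arrays for 8 of the 30 probe sets (26.7%), against 23.0% of all tested, and below them for 1 (3.33%), against 21.4%. Within hybridizations of the same number, AND-TCR was higher in both pairs for 15 of the 30 (50%), against 30.2% of all tested, and lower in both for 3 (10%), against 27.6%. The median log2 fold change was 0.09 in the first pair and 0.05 in the second. These signs move with the scaling. Quantile normalization left 13 of 30 fitted changes positive, but it gives all arrays of a type the same distribution, bright end included. It can thus take out a change shared by many bright probe sets. Scaling to the median of non-ribosomal probe sets left 21 of 30 positive.

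With 1 probe set for each gene, the median log2 fold change was 0.06 over 12 small subunit genes and 0.06 over 13 large subunit genes, and after quantile normalization it was −0.0168 for the small and −0.012 for the large subunit. Of the small subunit genes 10 were positive and 2 negative, and of the large subunit genes 9 were positive and 4 negative. The 9 include Rpl13 and Rpl22, which entered the test through the AND-TCR arrays alone. The median was 0.111 for the small and 0.0108 for the large subunit without AND-TCR hybridization 1, 0.117 and 0.07 without AND-TCR hybridization 2, 0.0206 and 0.0207 without C57BL/6 hybridization 1, and 0.1175 and 0.0409 without C57BL/6 hybridization 2.

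**Figure D3:**
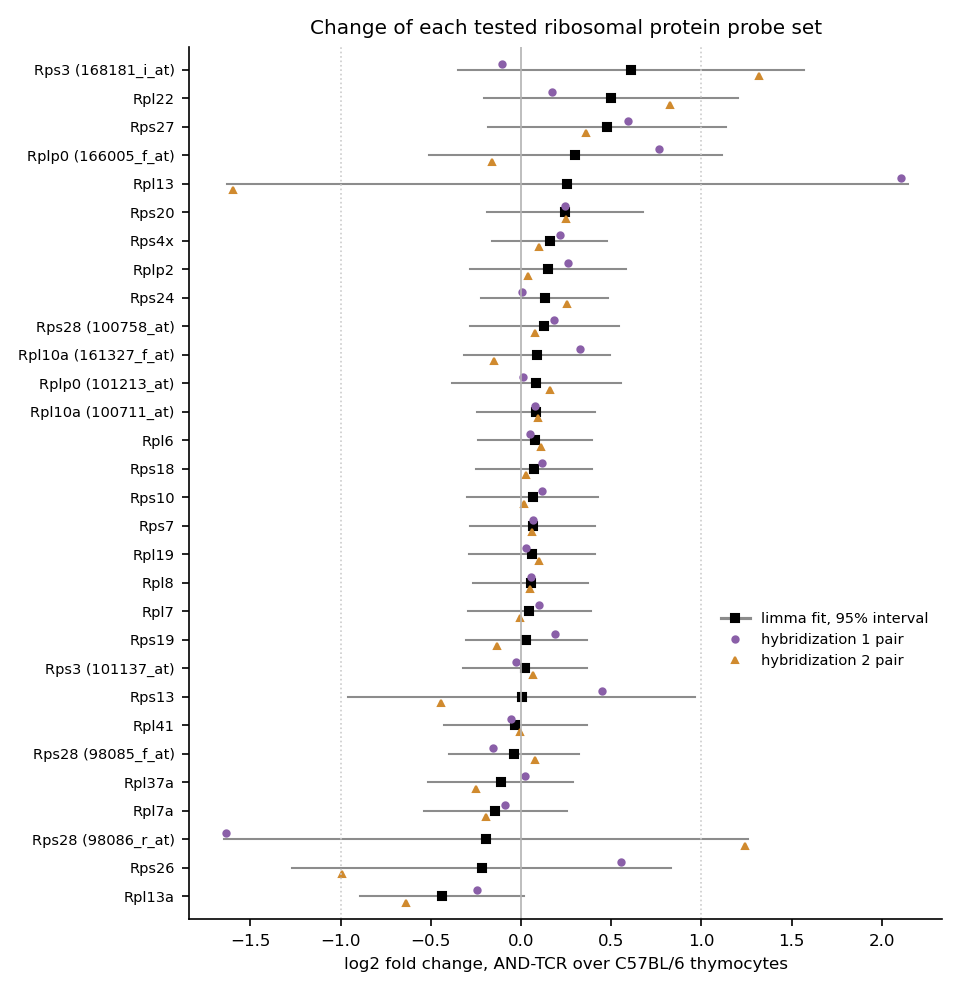
Log2 fold change, AND-TCR over C57BL/6, of each tested ribosomal protein probe set from limma (black square, line for the 95% interval), with the log2 ratio of the hybridization 1 pair (circle) and of the hybridization 2 pair (triangle). The dotted lines mark a 2-fold change either way. The intervals of all 30 include 0. The median of 0.07 became −0.0039 after quantile normalization and 0.048 after scaling to the median of non-ribosomal probe sets.

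Among small subunit genes at high intensity, Rps18, a protein of the head of the subunit, had 39952 and 37591 in AND-TCR thymocytes against 36812 and 36936 in C57BL/6 thymocytes. Rps10, whose mRNA start is printed above, had 31697 and 35356 in AND-TCR thymocytes against 29252 and 34985 in C57BL/6 thymocytes. Rps18 had both AND-TCR values above both C57BL/6 values, whereas those of Rps10 overlapped, and the log2 fold changes were 0.07 ± 0.14 for Rps18 and 0.07 ± 0.15 for Rps10 (SE), or −0.0289 for Rps18 and −0.0047 for Rps10 after quantile normalization. Rps19, the gene most often mutated in human Diamond-Blackfan anemia, had 28724 and 25447 in AND-TCR thymocytes against 25170.0 and 27854 in C57BL/6 thymocytes, and its log2 fold change was 0.03 ± 0.14 (limma adjusted p = 0.952). Rps7 gave 43198 and 47153 in AND-TCR thymocytes against 41188 and 45242 in C57BL/6 thymocytes, so that in both groups the second array read higher than the first, and its log2 fold change of 0.06 became −0.03 after quantile normalization.

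The largest differences toward AND-TCR thymocytes that had the same sign in both pairs were small in fold or came from dim probe sets. Rps20, a small subunit protein read on U74Cv2, had 212056 and 195281 in AND-TCR thymocytes against 179299 and 164441 in C57BL/6 thymocytes. The groups did not overlap, the ratios were 1.18 and 1.19 in the 2 pairs, and the log2 fold change was 0.245 ± 0.18 (limma adjusted p = 0.621), or 0.0739 after quantile normalization. The other Rps20 probe sets, 94039_at and 171542_at, were under their limits on all 4 arrays. Rps24, another small subunit protein and a Diamond-Blackfan gene in humans, had 51619 and 55505 in AND-TCR thymocytes against 51453 and 46437 in C57BL/6 thymocytes, with a log2 fold change of 0.13 ± 0.15 that became −0.0031 after quantile normalization. This Rps24 probe set, 97696_r_at, was designed on the same accession as that of Rpl7, a large subunit protein. That Rpl7 probe set had 30757 and 26341 in AND-TCR thymocytes against 28681 and 26464 in C57BL/6 thymocytes. The other Rps24 probe set, 93121_at, was designed on a different accession and was under its limit of 420.8 on every array. It had 224 and 294 in AND-TCR thymocytes against 101 and −8 in C57BL/6 thymocytes. Whether 97696_r_at reads Rps24 mRNA was not tested.

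Rps27, a zinc-binding protein of the small subunit, was read by a dim probe set at 1946 and 1632 in AND-TCR thymocytes against 1292 and 1272 in C57BL/6 thymocytes. Both AND-TCR arrays were above both C57BL/6 arrays, and the log2 fold change was 0.48 ± 0.28 (limma adjusted p = 0.519), with an interval from −0.18 to 1.14. After quantile normalization the change was 0.455. A bright probe set shared by Rps27 and its retrotransposed copy Rps27rt had 46499.6 and 48646 in AND-TCR thymocytes against 41815 and 42417 in C57BL/6 thymocytes, a log2 fold change of 0.18 ± 0.14. Both probe sets gave positive changes, and neither passed the test.

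Rps4x lies on the X chromosome in mice and encodes a small subunit protein. It had 40393 and 38900.2 in AND-TCR thymocytes against 34798 and 36233 in C57BL/6 thymocytes, with no overlap, ratios of 1.16 and 1.07, and a log2 fold change of 0.16 ± 0.14 (limma adjusted p = 0.67), or 0.0774 after quantile normalization. The groups also differed in sex-linked RNAs. Xist, the RNA that silences an X chromosome in females, had −53 and −99 in AND-TCR thymocytes against 2878 and 3001 in C57BL/6 thymocytes, and Eif2s3y, a gene of the Y chromosome, had 1649 and 1529 in AND-TCR thymocytes against −110 and 13 in C57BL/6 thymocytes. Sex of the mice and group cannot be told apart in these arrays.

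Among large subunit genes, Rpl13a, which in human monocytes also leaves the ribosome to repress translation of inflammatory mRNAs, had the largest difference toward C57BL/6 thymocytes. It had 2972 and 2485 in AND-TCR thymocytes against 3512 and 3867 in C57BL/6 thymocytes. Among the 30 tested probe sets with a single symbol, it was the only one with both AND-TCR arrays below both C57BL/6 arrays. Its log2 fold change was −0.44 ± 0.19, with an interval from −0.89 to 0.02 (limma adjusted p = 0.378), or −0.443 after quantile normalization.

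Rpl7a, with the longest C/T run among the windows shown, had 31449 and 24962 in AND-TCR thymocytes against 33412 and 28599 in C57BL/6 thymocytes. It was lower in AND-TCR thymocytes in both pairs, with ratios of 0.941 and 0.873, but the groups overlapped and the log2 fold change was −0.14 ± 0.17. After quantile normalization the change was −0.188. Rpl41, the smallest ribosomal protein, had 90105 and 98877 in AND-TCR thymocytes against 93691 and 99300.0 in C57BL/6 thymocytes, and its ratios were 0.962 and 0.996. Its log2 fold change of −0.03 was −0.0902 after quantile normalization. Rpl8, a protein close to the catalytic center, had 40545 and 39599 in AND-TCR thymocytes against 38949 and 38301 in C57BL/6 thymocytes, and its log2 fold change of 0.05 became −0.0385 after quantile normalization. Rpl19 had 47969 and 53434 in AND-TCR thymocytes against 47125 and 49906 in C57BL/6 thymocytes, and its log2 fold change of 0.06 ± 0.15 became −0.0477 after quantile normalization.

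Rpl22, the large subunit protein that αβ T-cell development requires, was at the edge of detection. Its probe set 92857_at had 473 and 772 in AND-TCR thymocytes against −311 and 435 in C57BL/6 thymocytes, so that 1 of the 2 C57BL/6 arrays was under the limit of 420.8. The fitted log2 fold change, with the value under the limit set to it, was 0.50 ± 0.30 (limma adjusted p = 0.524), and the 95% interval ran from 0.869-fold to 2.30-fold. It was 0.459 after quantile normalization, 0.999 with the limit at 1 noise SD, 0.85 without AND-TCR hybridization 1 and 0.15 without AND-TCR hybridization 2. The other 2 Rpl22 probe sets were under their limits on all 4 arrays.

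The stalk proteins sit on the large subunit and recruit translation factors. Rplp0, their anchor, had 66607 and 88037 in AND-TCR thymocytes against 66003 and 78868 in C57BL/6 thymocytes on probe set 101213_at. The second array exceeded the first in both groups, by more than the groups differed, and the log2 fold change of 0.09 ± 0.20 became −0.0027 after quantile normalization. Rplp2 had 25546 and 20277 in AND-TCR thymocytes against 21291 and 19720.3 in C57BL/6 thymocytes on U74Cv2, with overlap and a log2 fold change of 0.15 ± 0.18. Rplp1 was read only by a probe set it shares with a predicted gene, at 72685 and 68585 in AND-TCR thymocytes against 59935 and 60388.0 in C57BL/6 thymocytes, without overlap and with a log2 fold change of 0.23 ± 0.15 (limma adjusted p = 0.564).

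For 4 genes with several tested probe sets, the gap between their log2 fold changes was 0.59 for Rps3, 0.33 for Rps28, 0.22 for Rplp0 and 0.0042 for Rpl10a. The 2 probe sets of Rpl10a, a large subunit protein, gave 0.08 (100711_at) and 0.09 (161327_f_at). For Rps28, 2 bright probe sets gave 0.13 and −0.04, or 0.0537 and −0.214 after quantile normalization. The third Rps28 probe set, 98086_r_at, had 445 and 1211 in AND-TCR thymocytes against 1384 and 511 in C57BL/6 thymocytes, opposite orders in the 2 pairs. For Rps3, a small subunit protein that also takes part in DNA repair, 101137_at had 45466 and 50334 in AND-TCR thymocytes against 46348 and 48003 in C57BL/6 thymocytes. Its U74Cv2 probe set 168181_i_at had 2321 and 3946 in AND-TCR thymocytes against 2495 and 679 in C57BL/6 thymocytes, where 679 is under the limit. The 2 log2 fold changes of Rps3 were 0.02 ± 0.15, which became −0.0737 after quantile normalization, and 0.61 ± 0.40, and the second was the 1 member change of at least 1.5-fold. That second value was 1.11 with the limit at 1 noise SD, 0.99 without AND-TCR hybridization 1, 0.94 without C57BL/6 hybridization 1, and under 1.5-fold at 0.23 without AND-TCR hybridization 2 and 0.28 without C57BL/6 hybridization 2.

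The U74Cv2 probe set of Rpl13 showed the widest scatter, with 6810 and 2055 in AND-TCR thymocytes against 1123 and 6213 in C57BL/6 thymocytes, and an interval from −1.63 to 2.14 on the log2 scale. A U74Av2 probe set shared by Rpl13 and a pseudogene had 52331 and 50676 in AND-TCR thymocytes against 46904 and 47785 in C57BL/6 thymocytes, with a log2 fold change of 0.12 ± 0.14. Rps26 on U74Cv2 likewise turned direction between pairs, with 8409 and 3432 in AND-TCR thymocytes against 5721 and 6828 in C57BL/6 thymocytes, while a probe set it shares with a predicted gene gave −0.04 ± 0.16.

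**Figure D4:**
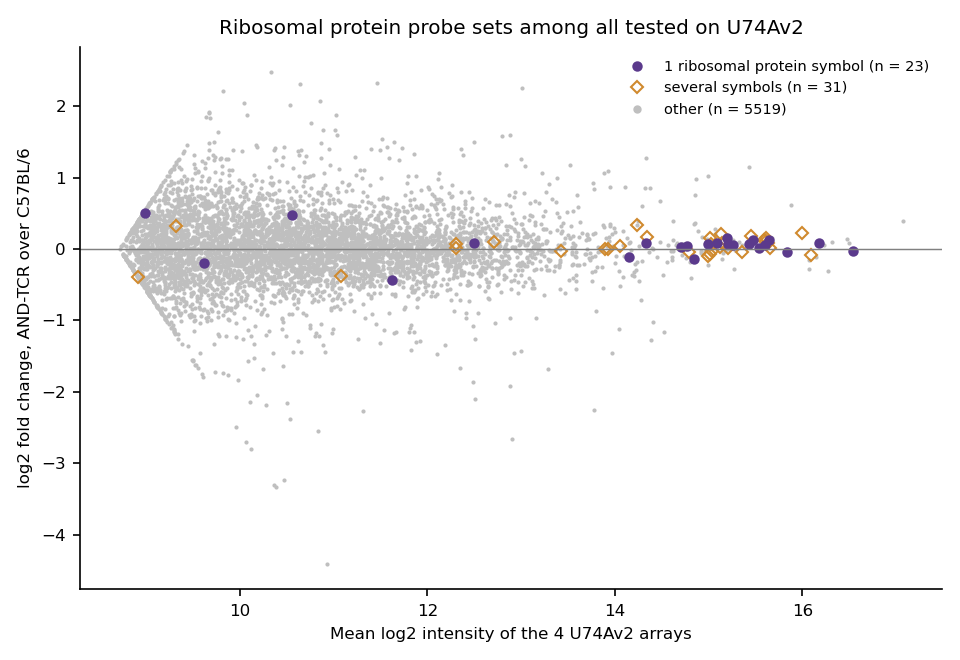
Log2 fold change, AND-TCR over C57BL/6, against mean log2 intensity of the 4 U74Av2 arrays, for 23 probe sets with 1 ribosomal protein symbol (filled circles), 31 with several symbols (open diamonds) and 5519 other tested probe sets (gray points). Most ribosomal protein probe sets lie at the bright end and close to 0. Their slightly positive median, 0.06 on U74Av2, moves with the scaling. Over both array types it was −0.0039 after quantile normalization and 0.048 after scaling to the median of non-ribosomal probe sets.

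No tested probe set was found for 16 of the 41 genes, which does not show that the mRNA was missing. Rps6, the small subunit protein phosphorylated downstream of mTOR, had −655 and −2482 in AND-TCR thymocytes against −1331 and −2326 in C57BL/6 thymocytes on its single-symbol U74Cv2 probe set. The U74Av2 probe set it shares with a pseudogene had 48032 and 58498 in AND-TCR thymocytes against 50345 and 45092 in C57BL/6 thymocytes, a log2 fold change of 0.15 ± 0.17. Rpl37, Rps14 and Rps15a were likewise tested only through shared probe sets, with log2 fold changes of −0.07 for Rpl37, −0.08 for Rps14 and 0.08 for Rps15a on its brighter one, which became −0.0097 after quantile normalization. The 3 probe sets of Rpl38, which mouse embryos need for translation of certain Hox mRNAs, were under the limit on at least 3 of their 4 arrays each. Rpl3l, a paralog of striated muscle, Rpl10l and Rpl39l, paralogs of the testis, and the further paralogs Rps4l and Rps27l had no array above the limit in either group.

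Design and source of the probe set went with whether it read above the limit. Of 20 probe sets made from accessions that begin with AV, 4 were tested, against 21 of 33 made from other accessions and 5 of 14 with none given. By suffix, 2 of 12 ending in r_at, the class whose probes broke design rules, were tested, and 19 of 39 ending in _at. Of the 5 probe sets of Rps4x, for example, 1 read between 34798 and 40393 and the other 4 were under the limit on all arrays.

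The 51 probe sets with several symbols gave a second reading of the family. Of these 36 were tested, from 32 symbol groups, with 0 called higher, 0 called lower, and a median log2 fold change of 0.06, or 0.0059 after quantile normalization. At an unadjusted p under 0.05 there were 2 of the 36, both with positive changes, against 14.0% of all tested probe sets. One reads Rpl12, a protein at the base of the stalk, with 21454 and 21707 in AND-TCR thymocytes against 16147 and 18186 in C57BL/6 thymocytes (log2 fold change 0.33 ± 0.13, limma adjusted p = 0.33). The other reads Rpl31 on U74Bv2, with 48902 and 47329 in AND-TCR thymocytes against 40657 and 40671 in C57BL/6 thymocytes (0.24 ± 0.09, limma adjusted p = 0.302). Another tested Rpl12 probe set, 165868_f_at on U74Cv2, had 10784 and 7565 in AND-TCR thymocytes against 7128 and 10119.5 in C57BL/6 thymocytes. Its order was opposite in the 2 pairs, and its log2 fold change was 0.09 ± 0.28 (limma adjusted p = 0.927). A further Rpl12 probe set, 101049_at, was under its limit on every array. Rpl5, a protein that carries ribosomal RNA into the large subunit, had 42584 and 33746 in AND-TCR thymocytes against 42209 and 33515 in C57BL/6 thymocytes, a log2 fold change of 0.01 ± 0.18, or −0.0973 after quantile normalization. Rpl11 was not analysed here.

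Changes of genes with and without a C/T run at the start overlapped. Among tested genes with a promoter window, the 10 with a run of at least 8 bases had a median log2 fold change of 0.07 (from −0.44 to 0.48, 7 positive), and the 12 without one had a median of 0.05 (from −0.11 to 0.50, 9 positive). Other mRNAs known to begin with a TOP tract had 17 tested probe sets with 0 called in either direction and a median of 0.01, against 0.02 for all tested, and after quantile normalization it was −0.0065. Eef1a1, the elongation factor that delivers tRNA, had 86193 and 105948 in AND-TCR thymocytes against 92377 and 81598 in C57BL/6 thymocytes. Eef2, the factor that moves the ribosome along, had 22564 and 36086 in AND-TCR thymocytes against 25654 and 31173 in C57BL/6 thymocytes, and both genes overlapped between groups.

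Ribosomal proteins of mitochondria, which serve the separate ribosome of that organelle, had 74 tested probe sets with 0 called in either direction. Their median log2 fold change was −0.12, with 21 positive and 53 negative (−0.14 after quantile normalization, where 73 were tested), and the first hybridization pair gave −0.04 and the second −0.17. On both C57BL/6 arrays 58 genes of the list had a probe set above the limit, and on both AND-TCR arrays 47 had one. Some probe sets, such as that of Mrpl11, entered the test through C57BL/6 alone, so these signs depend in part on the filter. Mrps6 was the 1 probe set at an unadjusted p under 0.05, with 633 and 298 in AND-TCR thymocytes against 1632 and 1725 in C57BL/6 thymocytes (limma adjusted p = 0.118). Both AND-TCR values lie under the U74Bv2 limit of 869.4 and were set to it, so Mrps6 was at least 1.93-fold lower in AND-TCR thymocytes, and the test leaves out the spread of the AND-TCR arrays.

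Genes of ribosome biogenesis, whose products make and assemble the subunits, had 31 tested probe sets with 0 called in either direction and a median log2 fold change of −0.05. Nucleolin (Ncl) had 22567 and 27537 in AND-TCR thymocytes against 23579 and 27274 in C57BL/6 thymocytes, and fibrillarin (Fbl), the methyltransferase of ribosomal RNA, had 6040 and 6395 in AND-TCR thymocytes against 5885 and 6411 in C57BL/6 thymocytes. Both genes overlapped between groups. The 2 probe sets at an unadjusted p under 0.05 both read Wdr12, which is needed to process the RNA of the large subunit, and were picked out after their values were seen. The first had 1782 and 1602 in AND-TCR thymocytes against 4750.3 and 4309 in C57BL/6 thymocytes (log2 fold change −1.42 ± 0.21, limma adjusted p = 0.0554), and the second had 1416 and 1722 in AND-TCR thymocytes against 3689 and 3053 in C57BL/6 thymocytes (−1.10 ± 0.26, limma adjusted p = 0.156). Neither passed the threshold, although the first did after quantile normalization (limma adjusted p = 0.048) and after scaling to the median of non-ribosomal probe sets (limma adjusted p = 0.0456).

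Of ribosomal proteins whose symbols fall outside the rule, Rpsa, the small subunit protein also known as the laminin receptor, was the 1 tested from a list of 6. It had 20327 and 24413 in AND-TCR thymocytes against 13745 and 20863 in C57BL/6 thymocytes, overlapping, with a log2 fold change of 0.40 ± 0.21 (limma adjusted p = 0.477). Rps3a1, outside both the rule and that list and picked after its values were seen, was also tested. Its values were 44066 and 50808 in AND-TCR thymocytes against 42580 and 47250 in C57BL/6 thymocytes, a log2 fold change of 0.08 ± 0.15 (limma adjusted p = 0.88).

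Replicate spread set how small a difference could be seen. For the 20 bright ribosomal protein probe sets, the median absolute log2 difference between the 2 arrays of a group was 0.15 for AND-TCR and 0.13 for C57BL/6, against 0.08 between groups in each pair. For all tested probe sets these medians were 0.29 for AND-TCR and 0.25 for C57BL/6. RNA quality was read as the ratio of signal from the 3′ to the 5′ control probe sets. For Gapdh the ratio was lower in AND-TCR thymocytes in 6 of the 6 same-numbered pairs, and on U74Bv2 the groups did not overlap, with 0.707 and 0.733 in AND-TCR against 0.913 and 0.939 in C57BL/6 thymocytes. For Actb it was lower in AND-TCR thymocytes in 4 of the 6 pairs, and the groups did not overlap on U74Cv2, with 1.2 and 1.25 in AND-TCR against 1.34 and 1.31 in C57BL/6 thymocytes. The part of RNA quality in the values above was not tested.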

How the data were processed

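The authors reverse-transcribed and biotin-labeled total RNA, hybridized it to the U74 arrays and analyzed the scans with Microarray Suite 4.0. The deposited tables hold linear intensities, some of them negative, which the authors had scaled to a trimmed mean near 1000. Neither the type of value nor the scaling target is stated in the sources used here. Within each array type, arrays were brought to the same trimmed mean (2% dropped at each end), values under 2 noise SDs, estimated from the negative values, were set to that limit, and limma 3.58.1 (R 4.3.3, lmFit and eBayes with trend) was fitted to the log2 values, with Benjamini-Hochberg adjustment over all 3 array types at once. The 66 control probe sets per array type were left out. Exact permutation of 2 against 2 arrays cannot reach the threshold, so that test is not given. 

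Symbols came from the platform annotation, which gives a single symbol to 29197 probe sets, more than 1 to 724 and no symbol to 6978, and were checked against RefSeq for 29110. Start windows are RefSeq sequence (GRCm38.p6). The text names the 6 tested probe sets with the largest same-sign change in each direction (3 were lower), the 6 brightest on U74Av2 and the 4 dimmest, genes listed for roles outside the ribosome, genes with several tested probe sets, and up to 4 members of each other list. Mrps6, Hba-a1, Rpl12, Rpl31, Rps7, Rps10, Rps18, Rps26, Rpl7, Rpl8, Rpl13 and the shared and X- or Y-linked probe sets were chosen after their values were seen. Members and lists were chosen with earlier results of these data known. The fit was tested on simulated data. Python 3.11.15 and matplotlib 3.10.9 drew the plots.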

Additional observations from a re-analysis of the deposited data

How the results depend on the processing

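In limma, 0 ribosomal protein probe sets were called in either direction under any alternative run. The median log2 fold change of tested members (0.0686) was −0.0039 after quantile normalization and 0 without a filter on dim probe sets. That of the genes was −0.012 and 0 under the same settings and 0.0436 after scaling to the median of non-ribosomal probe sets. The small subunit median was −0.0168 and 0, and the large subunit median −0.012 and 0, 0.0415 after non-ribosomal scaling, and 0.053 with the limit at 4 noise SDs or with all 4 arrays required above it. Leaving out 1 hybridization gave medians of 0.0356 to 0.1045 for members, 0.0207 to 0.0933 for genes, 0.0206 to 0.1175 for small and 0.0108 to 0.07 for large subunit genes.

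Over all tested probe sets (62 higher and 73 lower), calls numbered 129 higher and 127 lower with all 4 arrays required above the limit, 335 and 355 without a filter, where limma warned that the variance estimate was unreliable on U74Cv2, and 1 and 9 without a trend. Leaving out any 1 hybridization gave 0 higher and 0 lower, where the lone array of a group is assumed to vary like the other group. With the hybridization number as a replicate block, 155 were higher and 151 lower, and 0 members were called, so the block changed no call of a member. The deviations of same-numbered arrays correlated at 0.0354 for U74Av2, −0.119 for U74Bv2 and −0.232 for U74Cv2 over all tested probe sets, at −0.745 for the 30 members, and at 0.699 for the 20 members above 10000 on all 4 arrays, of which 15 moved the same way from hybridization 1 to 2 in both groups. With the numbers crossed, chosen after seeing the data, 229 were higher and 226 lower. The causes were not tested.

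Of the values of named single probe sets under alternatives, 21 changed sign and 214 did not, and 0 were called. Quantile normalization gave −0.0031 for Rps24, −0.0027 for Rplp0 (101213_at), −0.0477 for Rpl19 and −0.0737 for Rps3 (101137_at), and non-ribosomal scaling gave −0.0002 for that Rps3 probe set. Leaving out 1 hybridization gave −0.0151 to 0.318 for Rplp2, −0.308 to 0.0248 for Rpl7a, −0.0982 to 0.0358 for Rpl41, −0.115 to 0.287 for Rplp0, −0.0158 to 0.14 for Rpl19, −0.053 to 0.0937 for Rps3, −0.0573 to 0.118 for Rps19, −0.086 to 0.263 for Rpl10a (161327_f_at), and for Rps28 −0.121 to 0.0446 (98085_f_at), −0.918 to 0.526 (98086_r_at) and −0.0364 to 0.296 (100758_at). With 2 arrays a group and no count of molecules, the number of arrays limits the precision, and the median SE of the log2 fold change was 0.15 for the 20 members above 10000 on all 4 arrays and 0.37 for the other 10.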
